A study of Mus musculus with 24 samples.

Results

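The genes described here are 28 genes of cholesterol synthesis and of its control by SREBP2, measured in mouse bone marrow-derived macrophages (BMDMs) given medium from lung cancer cells with or without the triterpenoid CDDO-Me. They were chosen by name, by taking each gene whose symbol was on a fixed list. No measured value entered this rule, but the list was drawn up with earlier results of these data known. All 28 were found among the 35770 gene names of the expression table, and all 28 were among the 13661 genes that were expressed well enough to be tested. By role they were 7 enzymes of the mevalonate steps, 2 enzymes that branch towards other isoprenoids, 3 enzymes from squalene to lanosterol, 9 enzymes from lanosterol to cholesterol, 4 genes for SREBP2 and its processing, 2 retention factors and 1 sterol carrier.

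The study asked how medium from LL2 cells, the Lewis lung carcinoma line of C57BL/6 mice, sets the state of macrophages, and whether CDDO-Me, a synthetic triterpenoid that activates the NRF2 antioxidant pathway, changes it. BMDMs of C57BL/6 mice were grown with M-CSF at 20 ng/mL and then received a mixture that was 75% conditioned medium (CM), collected after 48 h from NRF2 KO, KEAP1 KO or wild-type (WT) LL2 cells, or control medium from a plate without cells, which is called media here. Each of the 4 media was combined with vehicle or with 100 nM CDDO-Me for 24 h. This gave 8 groups of 3 libraries, 24 in all: media/vehicle, WT CM/vehicle, KEAP1 KO CM/vehicle, NRF2 KO CM/vehicle and the same media with CDDO-Me. KEAP1 is the adaptor that marks NRF2 for destruction, so its loss raises NRF2 activity in the cancer cells. The edited genes were edited only in the LL2 cells that made the medium, and the macrophages carried the normal genes, so macrophage RNA cannot check the knockouts. Each knockout appears under a single line code in the library names, so an effect of a KO medium cannot be told apart from an effect of that line. The labels call the 3 samples of a group independent but do not say whether they came from different mice, so the p-values measure the spread between these samples, which may be technical.

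Cells make cholesterol from acetyl-CoA through mevalonate, the isoprenoid farnesyl diphosphate, squalene and lanosterol. When the endoplasmic reticulum holds little sterol, the escort protein SCAP carries the transcription factor SREBP2 to the Golgi, where the site-1 and site-2 proteases release its active part, which raises transcription of nearly every gene of the pathway. When sterol is plentiful, INSIG proteins hold SCAP and SREBP2 in the endoplasmic reticulum and the pathway falls silent. In macrophages this control sits beside uptake, storage and efflux of cholesterol, since these cells take up much of it from outside.

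SREBP2 binds promoters beside the factor NF-Y, which reads CCAAT. The 150 bases before the most upstream RefSeq start of 6 genes are shown for comparison. They are genes that moved far, the factor itself and 2 genes that moved differently with CDDO-Me. Insig1 is the retention factor that was called lower with CDDO-Me in all 4 media, and Insig2 the retention factor that was called lower in 0. Idi1 had the largest change of all members, Hmgcs1 holds the classical sterol element, Srebf2 encodes SREBP2, and Pmvk was singled out after its values were seen. Capitals mark the sterol element TCACNCCAC, the NF-Y box CCAAT and the E-box CACGTG on either strand, so CCAAT on the other strand reads ATTGG.
Idi1, chr13:8885456-8885605 (+): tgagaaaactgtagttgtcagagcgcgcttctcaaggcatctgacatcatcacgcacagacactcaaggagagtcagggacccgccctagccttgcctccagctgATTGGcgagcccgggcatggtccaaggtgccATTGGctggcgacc
Hmgcs1, chr13:119690201-119690350 (+): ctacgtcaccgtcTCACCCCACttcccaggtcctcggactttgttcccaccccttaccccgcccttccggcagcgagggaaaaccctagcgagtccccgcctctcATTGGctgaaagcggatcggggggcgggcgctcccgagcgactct
Insig1, chr5:28071262-28071411 (+): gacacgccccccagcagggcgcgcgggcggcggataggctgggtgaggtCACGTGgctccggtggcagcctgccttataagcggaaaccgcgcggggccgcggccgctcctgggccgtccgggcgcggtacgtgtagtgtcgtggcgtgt
Srebf2, chr15:82147119-82147268 (+): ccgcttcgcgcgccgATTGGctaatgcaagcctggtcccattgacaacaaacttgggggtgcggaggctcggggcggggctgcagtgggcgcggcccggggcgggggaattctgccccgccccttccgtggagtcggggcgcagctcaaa
Insig2, chr1:121332590-121332739 (−): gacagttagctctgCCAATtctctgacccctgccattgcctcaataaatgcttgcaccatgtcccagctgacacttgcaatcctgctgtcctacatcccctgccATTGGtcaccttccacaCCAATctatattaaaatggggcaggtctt
Pmvk, chr3:89454391-89454540 (+): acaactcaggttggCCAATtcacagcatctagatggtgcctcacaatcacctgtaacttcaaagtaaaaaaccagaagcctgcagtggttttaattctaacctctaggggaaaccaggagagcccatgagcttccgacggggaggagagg
These windows are from RefSeq on build GRCm38.p6, 1 build older than the authors' GRCm39, and are printed 5′ to 3′ on the strand of the gene. Insig2 and Pmvk have further RefSeq starts with windows of their own that are not shown. On GRCm39, by the GENCODE annotation, the genes themselves lie at chr5:28276315-28283668 (Insig1), chr1:121181760-121260400 (Insig2), chr13:8935537-8942487 (Idi1), chr13:120151915-120170470 (Hmgcs1), chr15:82031382-82093201 (Srebf2) and chr3:89361758-89376323 (Pmvk). The printed stretches lie before the annotated RefSeq starts and hold no exon of that transcript.

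Promoter windows of 300 bases, 250 before and 50 after the start, were given for 24 of the 28 members, with 30 windows in all. Fdps, Sqle, Fdft1 and Stard4 had no window. The NF-Y box was in 20 of these 24 members (83.3%) and in 43.1% of the 9987 tested genes that had a window. The sterol element was in 1 member, Hmgcs1 (4.17%), against 1.33% of the tested genes. Only the form TCACNCCAC was searched, so other forms of the element would be missed. The GC box GGGCGG, read by SP1, was in 21 members (87.5%) against 67.9%, and the E-box was in 5 (20.8%) against 11.6%. Over all 32851 windows of the annotation, 37.4% held the NF-Y box, 1.24% the sterol element, 35.7% the GC box and 7.15% the E-box. A match is only a run of letters, and factor binding was not measured. Both genes of the pair shown for contrast, Insig2 and Pmvk, hold CCAAT in the most upstream window but not in their further windows. Insig1 holds none in the bases shown, but its 300-base window holds an NF-Y box farther upstream, at -216 from the start.

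**Figure D1:**
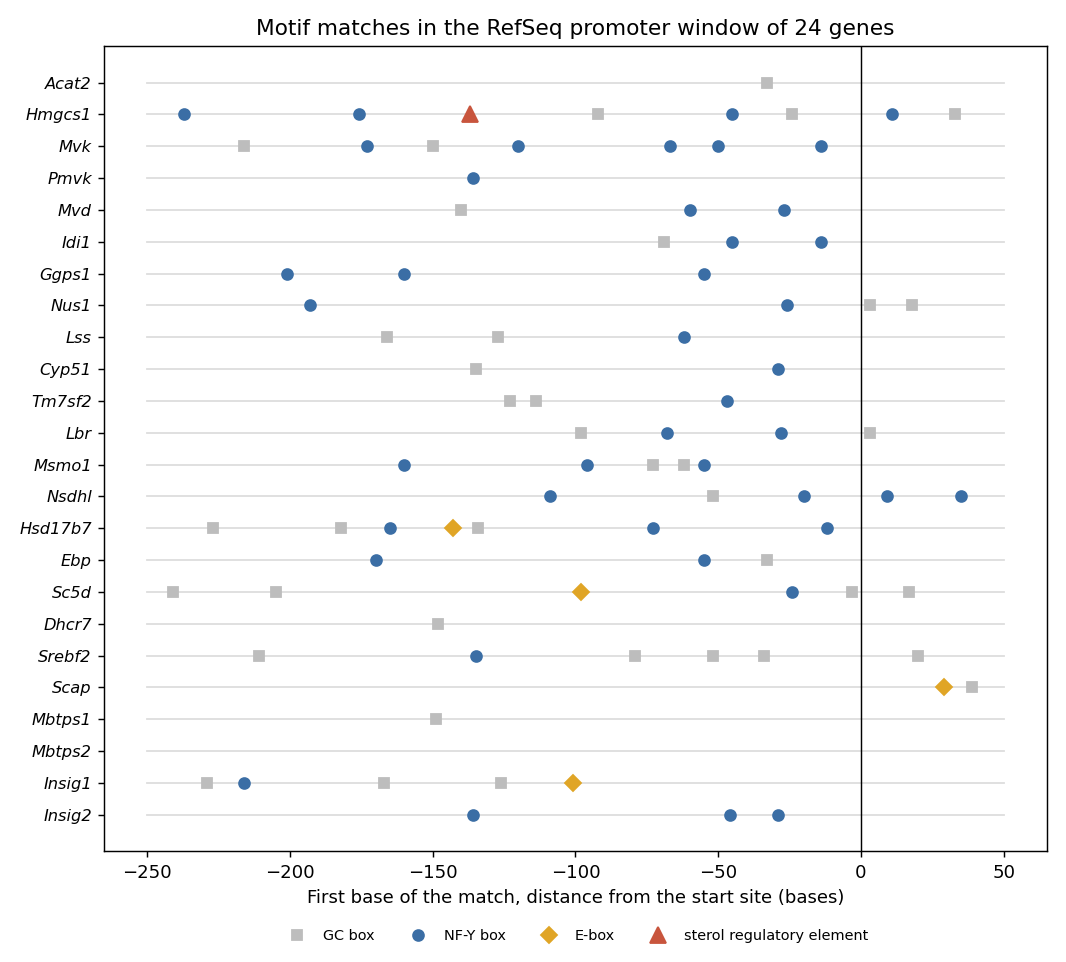
Positions of 4 motifs in the most upstream RefSeq promoter window of the 24 members that had one. The x axis is the distance of the motif's opening base from the start site in bases, each line is a gene, and each symbol is a match on either strand. NF-Y boxes are spread over 19 of the 24 windows, and the sterol element in the form TCACNCCAC is seen in the window of Hmgcs1 alone.

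Values are TPM as deposited, a gene's share of all transcripts of a library corrected for gene length, so levels of different genes can be set side by side. Differences are log2 differences of TPM + 1 after scaling between libraries, each given with its standard error (SE), and were tested with limma over all 13661 genes, so the adjusted p is adjusted over all of them. A gene was called when its adjusted p was under 0.05. The added 1 makes a difference smaller than the true ratio for genes of a few TPM. The median level over the 24 libraries ran from 7.81 TPM for Hsd17b7 to 73.5 TPM for Msmo1. The highest group mean was in KEAP1 KO CM/vehicle BMDMs for 22 of the 28 members, and the lowest was in WT CM/CDDO-Me BMDMs for 19. These are means of TPM before scaling, and the share of all genes with such extremes was not counted. The scaling factors, by which TPM was divided, were 1.01 to 1.09 in KEAP1 KO CM/vehicle and 0.910 to 0.940 in WT CM/CDDO-Me. Scaling therefore narrows the gap between these 2 groups.

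The identity of the cells and libraries was checked before the members were compared. The summed level of 8 macrophage markers was 15681 to 38521 TPM per library, while 5 lymphocyte markers summed to at most 1.42 TPM, 3 dendritic cell markers to at most 5.16 TPM and 4 epithelial markers to at most 4.72 TPM. Neutrophil markers, 7 genes, summed to 11.1 to 74.2 TPM. Fibroblast markers were present, and all 12 were detected, with sums of 365 to 4059 TPM. In bulk RNA, fewer cells of a type and less RNA per cell cannot be told apart. All 7 NRF2 target genes were called higher with CDDO-Me in media, NRF2 KO CM and KEAP1 KO CM, and 6 of 7 in WT CM. Replicate 3 of NRF2 KO CM/vehicle and replicate 3 of NRF2 KO CM/CDDO-Me stood apart, with 15702 and 16299 genes above 0 against 17817 to 18993 in the other 22 libraries. In these libraries 17 and 23 of the 28 members were at the lowest of the group's 3 values, against 54.8% and 55.7% of all genes. Since all libraries share the estimate of spread, each main count is also given without these 2 libraries, an alternative added after the values were seen.

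The question of the vehicle groups was what tumor cell medium does to the pathway. Sterol synthesis genes were higher in WT CM/vehicle than in media/vehicle BMDMs: 15 of 28 members were called higher and 0 lower, where 7.34% of all genes were called in either direction. The median difference of the members was 0.62, against 0.01 over all tested genes. Of the 7 mevalonate enzymes 6 rose, as did 3 of 3 from squalene to lanosterol, 4 of 9 from lanosterol to cholesterol, the retention factor Insig1 and the sterol carrier Stard4. None of the 4 genes for SREBP2 and its processing and neither isoprenoid branch enzyme was called.

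Acat2, the cytosolic thiolase that joins acetyl-CoA units at the head of the pathway (GRCm39 chr17:13161367-13179641), had the largest difference. It was at 17.5, 17.5 and 16.1 TPM in media/vehicle and at 43.5, 44.8 and 34.7 TPM in WT CM/vehicle BMDMs. The 2 groups did not overlap, and the difference was 1.27 ± 0.17 (SE; limma adjusted p = 5.7e-05). Mvd, which decarboxylates mevalonate diphosphate, rose from 25.4 ± 0.667 to 58.8 ± 4.37 TPM (SD, n = 3 each) with a difference of 1.24 ± 0.24 (limma adjusted p = 0.00236). Fdps, which makes farnesyl diphosphate, rose from 91.8 ± 5.89 to 196.8 ± 6.13 TPM (SD, n = 3 each), a difference of 1.16 ± 0.16 (limma adjusted p = 5.3e-05). Idi1, the isomerase that makes the reactive isoprenoid unit, was at 36.9, 42.4 and 40.4 TPM in media/vehicle and 75.7, 73.0 and 80.7 TPM in WT CM/vehicle BMDMs. Its lowest WT CM value lay above its highest media value (0.99 ± 0.16, limma adjusted p = 0.00047).

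Of the other called members, Nsdhl, which removes methyl groups of the sterol ring, differed by 0.85 ± 0.20 (limma adjusted p = 0.0114). Lss, which closes squalene epoxide into lanosterol, differed by 0.82 ± 0.21 (limma adjusted p = 0.0211). Dhcr7, the reductase that makes cholesterol from its dehydro precursor, differed by 0.75 ± 0.14 (limma adjusted p = 0.00174), and Sqle, the epoxidase of squalene, by 0.73 ± 0.14 (limma adjusted p = 0.0016). The remaining 7 called members, Stard4, Insig1, Pmvk, Cyp51, Fdft1, Hmgcs1 and Msmo1, had differences of 0.48 to 0.71. Among members not called, Tm7sf2, one of 2 sterol reductases of the same step, had 1.04 ± 0.42 (limma adjusted p = 0.168). The other 12 lay between -0.26 for Scap and 0.58 for Insig2.

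Insig1 was at 56.7, 60.0 and 69.3 TPM in media/vehicle and 98.7, 85.1 and 106.3 TPM in WT CM/vehicle BMDMs, with no overlap (0.70 ± 0.13, limma adjusted p = 0.00127). Stard4, which moves cholesterol between membranes in the cytosol, was at 16.3, 17.6 and 19.3 TPM in media/vehicle and 26.6, 29.4 and 28.8 TPM in WT CM/vehicle BMDMs, also without overlap (0.71 ± 0.12, limma adjusted p = 0.00043). Srebf2 was at 83.3, 71.5 and 79.0 TPM in media/vehicle and 89.0, 89.8 and 92.1 TPM in WT CM/vehicle BMDMs. The mRNA of SREBP2 was thus higher in each WT CM library than in each media library, but the difference of 0.28 ± 0.11 was not called (limma adjusted p = 0.159).

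The count of 15 rests in part on 1 library, since leaving out replicate 1 of media/vehicle left 9 members called. Without the 2 libraries that stood apart, 21 were called, 20 higher and 1 lower, and the added ones were Mvk, Ebp, Tm7sf2, Insig2 and Srebf2 higher and Scap lower. Without scaling between libraries, 13 members were called higher and 0 lower, while the share of higher genes among all called genes went from 58.9% to 48.2%. Fibroblast marker sums were 1630 to 2765 TPM in media/vehicle and 1006 to 2025 TPM in WT CM/vehicle BMDMs, and 1 of 12 was called lower. Their part in the result was not tested.

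KEAP1 KO CM/vehicle BMDMs had the highest levels of the pathway. Against media/vehicle, 17 of 28 members were called higher and 0 lower, where 7.96% of all genes were called, and the median difference was 0.81 against 0.00 over all genes. By role these were 6 of 7 mevalonate enzymes, 3 of 3 from squalene to lanosterol, 6 of 9 from lanosterol to cholesterol, Insig1 and Stard4. Without the 2 libraries that stood apart, 24 were called, all higher.

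Acat2 was at 58.2, 65.7 and 45.9 TPM in KEAP1 KO CM/vehicle BMDMs, with no overlap with media/vehicle (1.65 ± 0.17, limma adjusted p = 2.2e-06). Fdps reached 262.9 ± 29.7 TPM (SD, n = 3), a difference of 1.49 ± 0.16 from media/vehicle (limma adjusted p = 2.1e-06). Idi1 was at 101.7, 106.7 and 86.4 TPM (1.27 ± 0.16, limma adjusted p = 2.6e-05). All of these libraries lay above every media/vehicle library. Mvd differed by 1.52 (limma adjusted p = 0.00028), Lss by 1.203 (limma adjusted p = 0.0008) and Nsdhl by 1.18 (limma adjusted p = 0.0006). Fdft1, which makes squalene, differed by 1.03 (limma adjusted p = 6.2e-06), and Stard4 by 0.98 (limma adjusted p = 8.5e-06). Hsd17b7, a reductase of the demethylation steps, and Lbr, the other sterol reductase beside Tm7sf2 and an anchor of the nuclear lamina, were also called, with differences of 0.62 and 0.48. Srebf2 was at 94.9, 102.6 and 104.8 TPM in KEAP1 KO CM/vehicle BMDMs and missed the call (0.36 ± 0.11, limma adjusted p = 0.051).

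The direct comparison of KEAP1 KO CM/vehicle with WT CM/vehicle BMDMs, which asks what the loss of KEAP1 in the cancer cells adds, called 0 of 28 members, as it called 0% of all genes. In limma, 5 members and 341 of all genes had an unadjusted p under 0.05. The members' median was 0.22 against -0.01 over all genes, 27 of 28 were above 0, and the range ran from -0.06 for Insig2 to 0.40 for Hsd17b7. The largest other values were 0.38 ± 0.21 for Lss, 0.37 ± 0.17 for Acat2 and 0.36 ± 0.12 for Fdft1, each with a limma adjusted p of 1. With limma's array weights, 13 members were called higher and 1081 of all genes were called. The weights of replicates 1, 2 and 3 were 6.19, 1.15 and 0.516 in KEAP1 KO CM/vehicle. They were 3.8, 1.12 and 0.546 in WT CM/vehicle, so replicate 1 weighed most in each compared group. The 2 libraries that stood apart, which are in neither group, had weights of 0.0358 and 0.0735. Leaving those 2 libraries out instead, with equal weights, gave 0. The members' higher level in KEAP1 KO CM than in WT CM was thus called with these weights and not with equal weights.

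No sterol gene was called between NRF2 KO CM/vehicle and media/vehicle BMDMs. The comparison called 0 of 28 members, where 0.00732% of all genes, 1 gene, was called, and 9 members and 1659 of all genes had an unadjusted p under 0.05 in limma. The members' median was 0.17 against 0.01 over all genes, and 19 of 28 were above 0. The range ran from -0.52 for Mvk to 0.55 for Nsdhl. Insig1 was at 80.4, 85.4 and 60.6 TPM and Idi1 at 47.1, 52.4 and 48.8 TPM in NRF2 KO CM/vehicle BMDMs. Insig1 overlapped media/vehicle and Idi1 lay above it in all 3 libraries (0.33 ± 0.16, limma adjusted p = 0.406). With the 2 libraries that stood apart left out, 0 members were called.

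WT CM/vehicle exceeded NRF2 KO CM/vehicle BMDMs for 9 members, with 0 lower, where 10.7% of all genes were called and the members' median was 0.35 against -0.01 over all genes. The called members were Mvd (1.33 ± 0.24), Fdps (1.05 ± 0.16), Dhcr7 (0.97 ± 0.14), Acat2 (0.88 ± 0.17), Lss, Pmvk, Idi1, Sqle and Stard4. Leaving out replicate 3 of WT CM/vehicle left 5, and a fit of these 2 groups alone called 0. When the 2 libraries that stood apart were left out, 13 were called. KEAP1 KO CM/vehicle exceeded NRF2 KO CM/vehicle BMDMs for 15 members, with 0 lower, where 8.82% of all genes were called, and the members' median was 0.63. Mvd (1.62 ± 0.24), Tm7sf2 (1.42 ± 0.42), Fdps (1.38 ± 0.16) and Acat2 (1.25 ± 0.17) had the largest differences. A fit of these 2 groups alone called 2 members, and 20 were called without the 2 libraries that stood apart. Tm7sf2 was at 17.5, 18.5 and 2.28 TPM in NRF2 KO CM/vehicle BMDMs, so 1 library set its group apart. Both comparisons share the NRF2 KO CM/vehicle libraries.

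**Figure D2:**
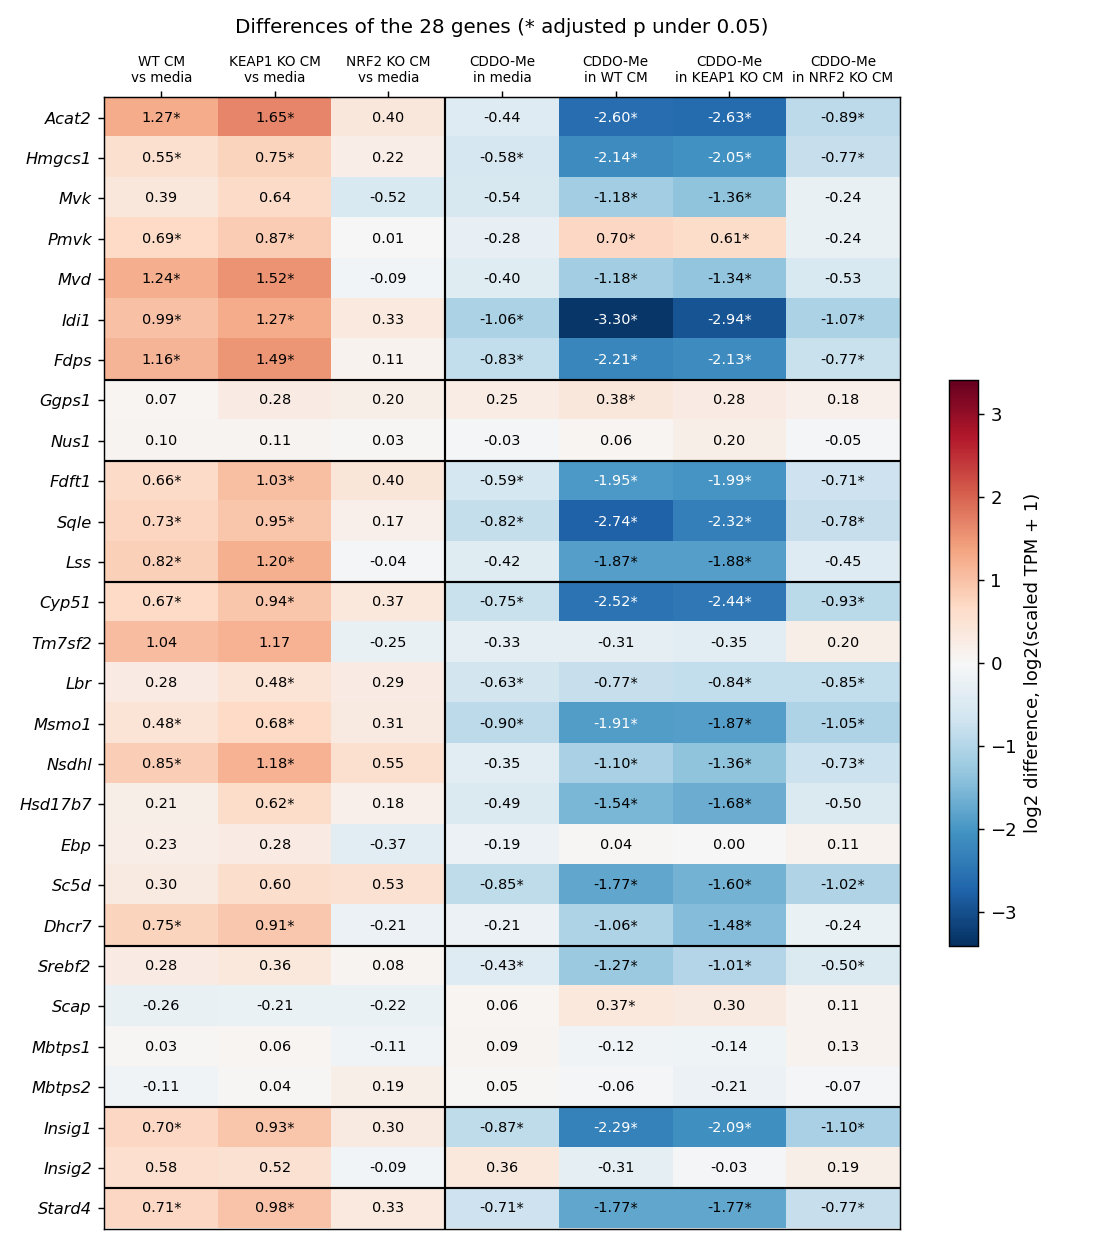
Log2 differences of the 28 members (lines, ordered by role) in 7 comparisons (columns), shown by colour, with a star where limma's adjusted p was under 0.05. WT CM and KEAP1 KO CM against media are higher for 15 and 17 members, and CDDO-Me against vehicle is lower for 12 members in media, 14 in NRF2 KO CM, 19 in WT CM and 19 in KEAP1 KO CM.

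CDDO-Me lowered the pathway also where no cancer cell had conditioned the medium. In media, 12 of 28 members were called lower with CDDO-Me and 0 higher, where 6.01% of all genes were called, 2.94% lower. The members' median was -0.44 against -0.01 over all genes. By role 3 of 7 mevalonate enzymes, 2 of 3 from squalene to lanosterol and 4 of 9 from lanosterol to cholesterol fell, together with Srebf2, Insig1 and Stard4. Without the 2 libraries that stood apart, 16 were called lower and 1, Insig2, higher.

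Idi1 fell from 39.9 ± 2.75 TPM in media/vehicle to 17.9, 20.4 and 17.3 TPM in media/CDDO-Me BMDMs, a difference of -1.06 ± 0.16 (limma adjusted p = 0.00025). Msmo1, an oxidase of the demethylation steps, fell from 93.5 ± 4.39 to 49.4 ± 1.73 TPM (SD, n = 3 each), which was -0.90 ± 0.13 (limma adjusted p = 0.0001). Insig1 fell to 32.3, 32.8 and 34.8 TPM, below every media/vehicle library (-0.87 ± 0.13, limma adjusted p = 0.00018). Sc5d, the sterol desaturase, had -0.85, Fdps -0.83 and Sqle -0.82, all called. Cyp51, the demethylase that acts on lanosterol, fell by 0.75 ± 0.17 (limma adjusted p = 0.0113).

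Stard4 went to 10.1, 11.02 and 9.99 TPM in media/CDDO-Me BMDMs (-0.71 ± 0.12, limma adjusted p = 0.00054). Srebf2 went to 53.0, 60.2 and 58.3 TPM (-0.43 ± 0.11, limma adjusted p = 0.0205). For both genes all CDDO-Me libraries lay under all vehicle libraries. Acat2 was at 11.5, 13.4 and 11.8 TPM, also below every media/vehicle library, but was not called (-0.44 ± 0.17, limma adjusted p = 0.172).

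The fall was deeper in WT CM and KEAP1 KO CM than in media, but not detectably so in NRF2 KO CM, as the tests of the difference given after the 4 media show. In WT CM, 19 of 28 members were called lower with CDDO-Me and 3 higher, where 27.8% of all genes were called, 13.9% lower and 13.9% higher. The median of the members was -1.22 against -0.03 over all genes. Of the mevalonate enzymes 6 of 7 fell, as did 3 of 3 from squalene to lanosterol, 7 of 9 from lanosterol to cholesterol, Srebf2, Insig1 and Stard4. The 3 that rose were Pmvk, Ggps1, which makes geranylgeranyl diphosphate, and Scap.

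Idi1 went from 75.7, 73.0 and 80.7 TPM in WT CM/vehicle to 5.59, 8.22 and 5.52 TPM in WT CM/CDDO-Me BMDMs, a difference of -3.30 ± 0.16 (limma adjusted p = 5.6e-12), and the means differed 11.9-fold. Sqle went from 60.4 ± 6.18 to 7.60 ± 0.710 TPM (SD, n = 3 each), which was -2.74 ± 0.14 (limma adjusted p = 7.1e-12). Acat2 went from 43.5, 44.8 and 34.7 TPM to 4.86, 6.97 and 4.75 TPM (-2.60 ± 0.17, limma adjusted p = 4.8e-10). These enzymes thus fell far below their media/vehicle level. Cyp51 fell by 2.52 on the log2 scale, from 52.6 ± 0.771 to 7.91 ± 2.17 TPM (SD, n = 3 each). Fdps fell by 2.21, from 196.8 ± 6.13 to 38.8 ± 3.34 TPM. Hmgcs1, the synthase whose promoter is shown with the sterol element, fell by 2.14, from 94.6 ± 6.72 to 19.3 ± 2.97 TPM. Fdft1 fell by 1.95 on the log2 scale.

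Insig1 went to 14.7, 18.7 and 19.4 TPM in WT CM/CDDO-Me BMDMs (-2.29 ± 0.13, limma adjusted p = 3.3e-11). Stard4 went to 6.69, 8.12 and 6.28 TPM (-1.77 ± 0.12, limma adjusted p = 3.7e-10). Srebf2 went to 31.6, 38.8 and 32.4 TPM (-1.27 ± 0.11, limma adjusted p = 2.2e-08). In all 3 genes the vehicle and CDDO-Me libraries were far apart. The other 8 called lower, Msmo1, Lss, Sc5d, Hsd17b7, Mvk, Mvd, Nsdhl and Dhcr7, fell by 1.06 to 1.91 on the log2 scale, and Lbr fell by 0.77. Leaving out the 2 libraries that stood apart, 20 were called lower, Insig2 now among them, and 3 higher.

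In KEAP1 KO CM, 19 members were called lower with CDDO-Me and 1, Pmvk, higher, where 28.8% of all genes were called, 14.2% lower. The members' median was -1.42 against -0.02 over all genes. Idi1 was at 13.1, 12.3 and 7.15 TPM in KEAP1 KO CM/CDDO-Me BMDMs (-2.94 ± 0.16, limma adjusted p = 2.9e-11). Insig1 was at 26.7, 23.7 and 22.4 TPM (-2.09 ± 0.13, limma adjusted p = 1.3e-10), and Stard4 was at 9.63, 9.17 and 7.56 TPM (-1.77 ± 0.12, limma adjusted p = 3.9e-10). Each of these was well under its vehicle libraries. Acat2 had -2.63, Cyp51 -2.44, Sqle -2.32, Fdps -2.13 and Hmgcs1 -2.05, all called. Srebf2 was at 47.1, 44.5 and 40.4 TPM (-1.01 ± 0.11, limma adjusted p = 5.2e-07). Leaving these 2 libraries out gave 19 lower and 4 higher.

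Without scaling between libraries, the median of all genes in these comparisons was -0.12 in WT CM and -0.17 in KEAP1 KO CM. On that scale the members' medians were -1.33 and -1.58, the calls were 19 lower and 1 higher in WT CM and 19 lower and 0 higher in KEAP1 KO CM, and the share of higher genes among all called genes went from 49.9% to 39.1% and from 50.5% to 34.6%. The falls of the pathway were therefore many times the shift of all genes. Fibroblast marker sums were 413 to 1071 TPM in WT CM/CDDO-Me and 365 to 1453 TPM in KEAP1 KO CM/CDDO-Me BMDMs, with 1 and 3 of 12 called lower. Their part in the result was not tested. Of 10 cell cycle genes, 9 were called lower with CDDO-Me in WT CM, 10 in KEAP1 KO CM, 10 in NRF2 KO CM and 5 in media, and the part of cell division was not tested either.

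In NRF2 KO CM, 14 members were called lower with CDDO-Me and 0 higher, where 9.77% of all genes were called, 5.28% lower. The members' median was -0.51 against -0.01 over all genes. Insig1 went to 36.1, 39.7 and 28 TPM in NRF2 KO CM/CDDO-Me BMDMs (-1.10 ± 0.13, limma adjusted p = 8.2e-06). Idi1 went to 22.5, 27.6 and 19.3 TPM (-1.07 ± 0.16, limma adjusted p = 0.00016), and Stard4 went to 13.7, 14.1 and 9.97 TPM (-0.77 ± 0.12, limma adjusted p = 0.00014). All 3 genes were below their vehicle libraries. Msmo1 had -1.05, Sc5d -1.02, Cyp51 -0.93, Acat2 -0.89 and Lbr -0.85, all called. Fdps was called with overlapping groups, since the vehicle libraries were at 108.9, 131.9 and 63.9 TPM and the CDDO-Me libraries at 59.7, 68.8 and 43.6 TPM (-0.77 ± 0.16, limma adjusted p = 0.00264). Srebf2 was at 62.2, 68.2 and 42.5 TPM and also fell (-0.50 ± 0.11, limma adjusted p = 0.0047). Both groups contain a library that stood apart: without them 15 members were called lower, and a fit of these 2 groups alone called 2.

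The 4 tests of CDDO-Me used separate libraries but shared the estimate of spread. Libraries of the same replicate number also correlated in some pairs of groups. Over all genes, 2.94% were called lower in media, 13.9% in WT CM, 14.2% in KEAP1 KO CM and 5.28% in NRF2 KO CM. The share of all genes called lower in all 4 was not counted. In all 4 media 12 members were called lower, namely Hmgcs1, Idi1 and Fdps of the mevalonate steps, Sqle and Fdft1, Cyp51, Sc5d, Msmo1 and Lbr of the later steps, Srebf2, Insig1 and Stard4. Acat2 and Nsdhl were called lower in 3 media, and Lss, Dhcr7, Mvd, Mvk and Hsd17b7 in 2. Another 9 members were called lower in none: Pmvk, Ebp, Tm7sf2, the branch enzymes Ggps1 and Nus1, Insig2, Scap and the proteases Mbtps1 and Mbtps2.

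**Figure D3:**
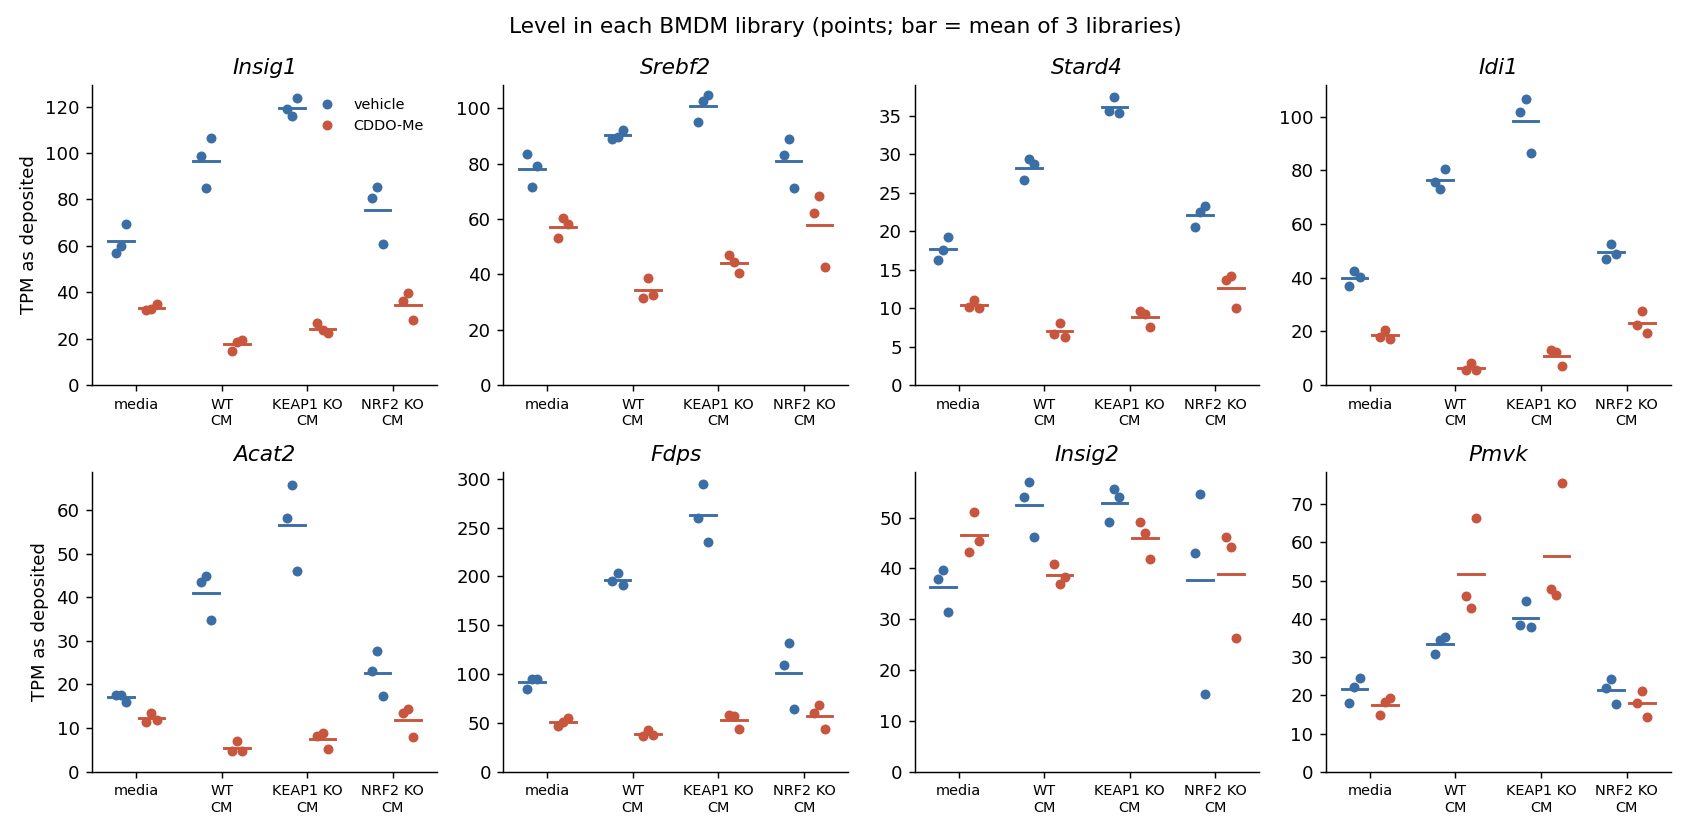
TPM of 8 members in each library of the 8 groups, with vehicle and CDDO-Me libraries in separate colours and a bar at the mean of 3. Insig1, Srebf2, Stard4, Idi1, Acat2 and Fdps are highest in KEAP1 KO CM/vehicle and low with CDDO-Me, Insig2 stays between 15.3 and 56.9 TPM, and Pmvk with CDDO-Me is high in KEAP1 KO CM and WT CM, between 42.8 and 75.5 TPM.

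Whether CDDO-Me acted more strongly in tumor cell medium was tested as the difference between its effects. The effect in WT CM was more negative than in media for 14 members and more positive for 1, where 15% of all genes were called, and the median of this difference was -0.85 against -0.03 over all genes. The largest was that of Idi1, -2.24 ± 0.23 (limma adjusted p = 5.7e-07), followed by Acat2 at -2.16 ± 0.25 (limma adjusted p = 2.3e-06) and Sqle at -1.92 ± 0.19 (limma adjusted p = 4.8e-07). Srebf2 itself differed by -0.84 ± 0.16 (limma adjusted p = 0.00064). Thus the factor's own mRNA also fell further in WT CM. In KEAP1 KO CM against media the effect was more negative for 15 members and more positive for 1, where 14.7% of all genes were called, with a median of -0.96. Acat2 (-2.18 ± 0.25), Idi1 (-1.88 ± 0.23) and Cyp51 (-1.69 ± 0.25) had the largest values there. Without the 2 libraries that stood apart, 19 members were more negative in each of these comparisons, with 3 more positive in WT CM and 1 in KEAP1 KO CM. Both tests share the media libraries.

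The effect in NRF2 KO CM did not differ detectably from that in media. The limma test called 0 of 28 members and 0% of all genes, 0 members and 374 of all genes had an unadjusted p under 0.05, and the members' differences ran from -0.44 for Acat2 to 0.53 for Tm7sf2 with a median of -0.07. The effects in KEAP1 KO CM and WT CM were compared in the same way. Again 0 members and 0% of all genes were called by limma, 1 member and 225 of all genes had an unadjusted p under 0.05, and the median was -0.02. The widest differences were 0.42 ± 0.19 for Sqle and -0.42 ± 0.20 for Dhcr7, each with a limma adjusted p of 1. Both differences of effects called 0 members also without the 2 libraries that stood apart.

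**Figure D4:**
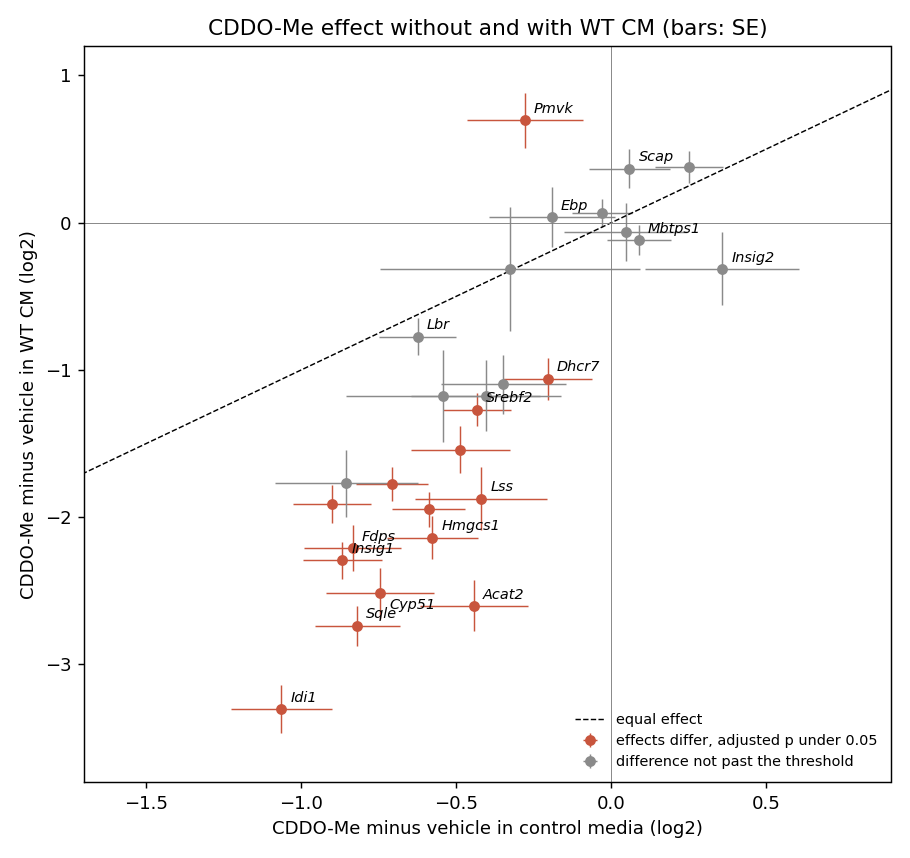
CDDO-Me minus vehicle of the 28 members in media (x axis) against WT CM (y axis), both as log2 differences with SE bars, with a dashed line where both effects are equal. Red marks the 15 members whose effects differ (limma adjusted p under 0.05), and 14 of them lie under the line, with Idi1 lowest at -3.30, while Pmvk lies above it.

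Under CDDO-Me the order of the media was turned around for many members. WT CM/CDDO-Me was below media/CDDO-Me BMDMs for 12 members and above for 1, where 26.8% of all genes were called, with a median of -0.23. Idi1 (-1.25 ± 0.16, limma adjusted p = 6.7e-06), Sqle (-1.19 ± 0.14), Cyp51 (-1.10 ± 0.17), Hmgcs1 (-1.01 ± 0.15) and Acat2 (-0.88 ± 0.17) were lower in WT CM/CDDO-Me, each of which had been higher in WT CM than in media under vehicle. Insig1 (-0.73 ± 0.13), Srebf2 (-0.56 ± 0.11) and Stard4 (-0.36 ± 0.12) were lower as well. Fdps was at 38.8 ± 3.34 TPM in WT CM/CDDO-Me and 50.9 ± 4.34 TPM in media/CDDO-Me BMDMs (SD, n = 3 each) and was not called (-0.22 ± 0.16, limma adjusted p = 0.358). Without the 2 libraries that stood apart, 14 members were called lower and 5 higher in WT CM/CDDO-Me.

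KEAP1 KO CM/CDDO-Me was below media/CDDO-Me BMDMs for 7 members and above for 3, where 22.5% of all genes were called, with a median of -0.17. The lower members were Cyp51 (-0.75 ± 0.17), Hmgcs1 (-0.72 ± 0.15), Idi1 (-0.61 ± 0.16), Hsd17b7, Sqle, Acat2 and Fdft1, and the higher ones were Pmvk, Ggps1 and Nus1, a subunit of the enzyme that starts dolichol synthesis. This count was unstable: it was 3 without replicate 3 of KEAP1 KO CM/CDDO-Me, 5 without replicate 2 of media/CDDO-Me, and 17 without the 2 libraries that stood apart. Without scaling it was 10 lower and 1 higher, against a shift of -0.15 in the median of all genes, and a fit of the compared groups alone gave 5 higher and 3 lower. NRF2 KO CM/CDDO-Me against media/CDDO-Me BMDMs called 0 members, where 0.154% of all genes, 21 genes, were called by limma, 2 members and 1006 of all genes had an unadjusted p under 0.05, and the median was 0.07. It also called 0 members with the 2 libraries left out.

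The retention factors parted from each other in their response to CDDO-Me. Insig1 is itself a target of SREBP2, and Insig2 does a similar task in the endoplasmic reticulum. Insig2 was at 37.9, 39.6 and 31.5 TPM in media/vehicle, 54.1, 56.9 and 46.1 TPM in WT CM/vehicle and 49.0, 55.6 and 54.0 TPM in KEAP1 KO CM/vehicle BMDMs. Both CM groups lay above media/vehicle, yet the differences of 0.58 ± 0.25 and 0.52 ± 0.25 were not called (limma adjusted p = 0.208 and 0.262). With CDDO-Me it was at 43.1, 51.1 and 45.4 TPM in media, 40.9, 37.0 and 38.3 TPM in WT CM and 49.2, 47.0 and 41.8 TPM in KEAP1 KO CM. The drug effects of 0.36, -0.31 and -0.03 were not called, where Insig1 had -0.87, -2.29 and -2.09. In NRF2 KO CM/vehicle BMDMs Insig2 was at 43.1, 54.6 and 15.3 TPM, and the low value is from a library that stood apart. Without these 2 libraries Insig2 was called higher in both CM groups (0.57 and 0.53) and higher with CDDO-Me in media (0.37), and lower with CDDO-Me in WT CM (-0.27).

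Pmvk, the kinase that adds the second phosphate to mevalonate, departed from its pathway. Under vehicle it followed the other enzymes, at 18.0, 22.2 and 24.4 TPM in media, 30.8, 34.6 and 35.2 TPM in WT CM and 38.3, 44.7 and 37.8 TPM in KEAP1 KO CM. The difference of WT CM from media was 0.69 ± 0.19 (limma adjusted p = 0.0279), and that of KEAP1 KO CM was 0.87 ± 0.19 (limma adjusted p = 0.0048). With CDDO-Me it was at 14.98, 18.2 and 19.3 TPM in media, but at 46.0, 42.8 and 66.5 TPM in WT CM and 47.7, 46.2 and 75.5 TPM in KEAP1 KO CM. Replicate 3 was the highest of its group in both tumor media. The rise with CDDO-Me was 0.70 ± 0.19 in WT CM (limma adjusted p = 0.00723) and 0.61 ± 0.19 in KEAP1 KO CM (limma adjusted p = 0.016). Leaving out replicate 3 of the CDDO-Me group gave 0.50 in WT CM and 0.38 in KEAP1 KO CM, neither of which was called (limma adjusted p = 0.0636 and 0.133). The KEAP1 KO CM call was also lost without replicate 1 of KEAP1 KO CM/vehicle (0.58) and without scaling (0.45), and over 17 alternatives the limma adjusted p ran from 0.000156 to 0.0636 in WT CM and from 0.00278 to 0.133 in KEAP1 KO CM. The comparison under CDDO-Me rested on no single library, since Pmvk in WT CM/CDDO-Me exceeded media/CDDO-Me BMDMs by 1.66 ± 0.19 (limma adjusted p = 1.1e-06) and by 1.46 to 1.80 over 17 alternatives. For KEAP1 KO CM/CDDO-Me this difference was 1.76 ± 0.19 (limma adjusted p = 5.1e-07), and it was 1.53 to 1.93 over 17 alternatives. In NRF2 KO CM Pmvk was at 22.0, 24.3 and 17.8 TPM with vehicle and 18.1, 21.1 and 14.4 TPM with CDDO-Me, with no call (-0.24 ± 0.19, limma adjusted p = 0.536).

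Among the genes that move and cut SREBP2 there was 1 call. Scap was at 40.1 ± 2.32 TPM in media/vehicle, 31.9 ± 1.33 in WT CM/vehicle and 38.4 ± 1.03 in WT CM/CDDO-Me BMDMs (SD, n = 3 each). It was called only as higher with CDDO-Me in WT CM (0.37 ± 0.13, limma adjusted p = 0.0424), a call that was lost in 8 of 17 alternatives, where the limma adjusted p ran from 0.000263 to 0.29. The site-1 protease gene Mbtps1 and the site-2 protease gene Mbtps2 were called in none of the 17 comparisons, and their drug effects ran from -0.21 to 0.13. Ebp, the sterol isomerase, was called in none either, with group means between 38.1 and 56.6 TPM.

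As a description over the 24 libraries, which share media, drug and scaling, Fdps followed the mean of the other 27 members most closely (Pearson r = 0.993), with Lss at 0.966, Acat2 at 0.96, Stard4 at 0.945, Insig1 at 0.939 and Srebf2 at 0.893. Pmvk was at -0.00182, Insig2 at 0.275, Ebp at 0.231, Ggps1 at -0.522 and Scap at -0.563.

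Genes of the neighbouring sterol and lipid pathways were counted from fixed lists, and their counts stand against the shares called over all genes, which were 7.34% for WT CM/vehicle and 7.96% for KEAP1 KO CM/vehicle against media/vehicle, and with CDDO-Me 6.01% in media, 27.8% in WT CM, 28.8% in KEAP1 KO CM and 9.77% in NRF2 KO CM. Of 13 genes of SREBP1 and fatty acid synthesis, 2 were called higher in WT CM/vehicle than in media/vehicle BMDMs, the desaturase Scd2 (1.34, limma adjusted p = 8e-05) and Acly (0.47, limma adjusted p = 0.014), and 8 in KEAP1 KO CM/vehicle, with 0 lower in both. With CDDO-Me in WT CM 9 of 13 were called lower and 2 higher. Fasn, fatty acid synthase, fell by 1.88 on the log2 scale, while Acss2, which makes acetyl-CoA from acetate, rose by 1.38. In media CDDO-Me called 0 of these lower and 2 higher, Acss2 (4.18) and Me1 (1.34). In KEAP1 KO CM 9 were lower and 1 higher, and in NRF2 KO CM 1 was lower and 2 higher.

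Of 8 genes of the liver X receptor side, which drives sterol efflux, 2 were called higher in WT CM/vehicle than in media/vehicle BMDMs, and with CDDO-Me in WT CM 4 were called higher and 4 lower. The genes of the 2 liver X receptors moved apart there. Nr1h3 fell by 1.75 on the log2 scale (limma adjusted p = 0.00043), with means of 36.95 TPM under vehicle and 9.49 TPM with CDDO-Me. Nr1h2, the more abundant, rose by 0.74 (limma adjusted p = 0.0287), with means of 102.7 and 159.8 TPM. Of 8 genes of sterol storage and oxysterols, 3 were called higher and 3 lower with CDDO-Me in WT CM: Ch25h, which makes an oxysterol, rose by 2.24 and Cyp27a1, which makes another, by 1.05, while Plin2, a coat protein of lipid droplets, fell by 1.75 (limma adjusted p = 2.2e-09). In media CDDO-Me called 0 higher and 1 lower, Plin2, at -0.71. Of 8 other sterol transport genes, Tmem97 rose in WT CM/vehicle (0.53, limma adjusted p = 0.00024) and fell with CDDO-Me in WT CM (-1.15, limma adjusted p = 1.1e-09), together with Gramd1b (-0.96). Of 10 partners in the endoplasmic reticulum, 0 were called in WT CM/vehicle against media/vehicle, also at an unadjusted p under 0.05 in limma, and 3 rose and 1 fell with CDDO-Me in WT CM, among them Rnf145, a ligase that responds to sterols (1.07, limma adjusted p = 1.4e-07). Of 11 genes that use isoprenoids, 1 was called higher and 0 lower with CDDO-Me in WT CM, Coq2 of ubiquinone synthesis (0.94, limma adjusted p = 0.013). The count of 1 of 11 isoprenoid users and the 2 of 8 sterol transport genes were below the 27.8% called over all genes, and 4 of 10 for the endoplasmic reticulum was not far above it, so nothing is read from these lists. The 5 genes of alternative activation rose in WT CM and KEAP1 KO CM under vehicle, where the sterol genes rose, and all 5 fell with CDDO-Me there. In media and NRF2 KO CM, where sterol genes also fell with CDDO-Me, no alternative activation gene was called lower. However, Retnla was at 0 TPM in both vehicle groups. Arg1 was at 0.17 and 0.63 TPM and Chil3 at 2.43 and 1.69 TPM in media/vehicle and NRF2 KO CM/vehicle. These genes had little or no room to fall, so their lack of a lower call carries no information. Mrc1, at 169.8 and 329.8 TPM, had room and was not called (-0.43 and -0.46). Clec10a was called higher with CDDO-Me in NRF2 KO CM (0.754, limma adjusted p = 0.00613).

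The table gives levels per gene name, and it is not stated whether counting used the strand. Fdft1 overlaps Ctsb on the other strand by 1184 bases, Cyp51 overlaps Akap9 by 7895 and Acat2 overlaps Tcp1 by 1700. Tm7sf2 overlaps Vps51 and Mbtps2 overlaps Yy2 on the same strand by 532 and 2867 bases. These lengths are of whole gene spans, introns included. Whether the transcripts share sequence, so that reads could be split, was not tested. A copy of Idi1, Idi1-ps1, was listed at 53.8 and 16.02 TPM in the 2 libraries that stood apart and at most at 9.44 TPM elsewhere, so Idi1 is less certain in those libraries.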

How the data were processed

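Poly(A) RNA of BMDMs was sequenced in 24 libraries, 8 groups of 3 named by the labels. The authors quantified the reads with kallisto on GRCm39, per the submitters' processing notes, and deposited 1 table of TPM (a gene's share of all transcripts, corrected for length). Its file name speaks of counts, but its columns all add up to the same total. TPM keeps no depth, so the depth of each library is unknown and no counting interval can be given. A row without a gene name held 0.0199 to 0.0635% of TPM and was left out. The kit's strand handling is not given in the sources used here.

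Genes above 1 TPM in at least 3 libraries were kept (13661 of 35770). Libraries were scaled by trimmed means of log ratios (30% of ratios and 5% of levels trimmed), and log2(TPM + 1) was fitted with limma 3.58.1 in R 4.3.3, with a mean-variance trend, all 24 libraries in 1 fit and 16 residual degrees of freedom. The 17 comparisons were adjusted by Benjamini-Hochberg over all genes, with a threshold of 0.05, two-sided. An exact permutation test of 3 against 3 samples cannot go below 0.1, so none is given. Python 3.11.15 with pandas 2.3.3 and matplotlib handled tables and figures. Promoter motifs were searched on both strands.

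All 28 members are named, with full statistics for at most 8 called members a comparison, library values for Insig1, Insig2, Stard4, Srebf2 and the members of largest difference, up to 4 genes per list, and the 10 other genes most like the members. A few results that the rule covers are not reported here. The members and lists were chosen with earlier results of these data known.

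The labels number the replicates alike in all groups. Deviations from the group means correlated at 0.256 on average between libraries with the same number and -0.121 between others, and in 15 of 28 pairs of groups every same-number correlation was above 0.1, among them media and WT CM under vehicle and both media groups. The lowest was 0.0221. The number was therefore taken as a sign of pairing in those pairs only. The main fit had no replicate block, so no main comparison was tested as paired. The fit with a block is only an alternative. The labels give no batch or date.

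Alternatives were other scalings, pseudocounts of 0.1 and 5, no filter or a mean of at least 5 TPM, no trend, array weights, the compared groups alone, a replicate block, each library left out, and both NRF2 KO CM replicate 3 libraries left out, which was added after the data were seen.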

Additional observations from a re-analysis of the deposited data

Results flagged for a closer look

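In 31 cases the effect of CDDO-Me on a member differed between WT CM or KEAP1 KO CM and media, by limma's test of the difference itself, with values on the log2 scale as effect in CM minus effect in media. In WT CM 14 were negative, and a negative value means a deeper fall with CDDO-Me in CM. Among the mevalonate enzymes these were Idi1 at -2.238, Acat2 at -2.158, Hmgcs1 at -1.561 and Fdps at -1.375. Among the enzymes from squalene to lanosterol they were Sqle at -1.917, Lss at -1.454 and Fdft1 at -1.358. Among the later enzymes they were Cyp51 at -1.77, Hsd17b7 at -1.054, Msmo1 at -1.009 and Dhcr7 at -0.8542. Insig1 was at -1.426, Stard4 at -1.067 and Srebf2 at -0.8361. Pmvk was the positive case in WT CM, at 0.974.

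In KEAP1 KO CM 15 were negative. Among the mevalonate enzymes Acat2 was at -2.181, Idi1 at -1.877, Hmgcs1 at -1.468 and Fdps at -1.294. Sqle was at -1.498, Lss at -1.456 and Fdft1 at -1.403. Of the later enzymes Cyp51 was at -1.69, Dhcr7 at -1.271, Hsd17b7 at -1.192, Nsdhl at -1.011 and Msmo1 at -0.9737. Insig1 was at -1.223, Stard4 at -1.061 and Srebf2 at -0.5758. Pmvk was positive at 0.8933, with a limma adjusted p of 0.0249 that ran from 0.000635 to 0.0797 over 23 alternatives. Both comparisons share the media libraries, so the cases in WT CM and in KEAP1 KO CM are not independent. The cause of these differences was not tested.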

How the results depend on the processing

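The members' counts of calls kept within 1.5 times of the reported value in all settings other than those given here, and of 5236 single-member values in settings with all libraries or 2 left out and 3528 with 1 left out, 0 called values changed sign. Array weights lower the weight of the libraries that stood apart, and in most groups they weigh replicate 1 most. With them the count was 13 for KEAP1 KO CM against WT CM and 18 for WT CM against NRF2 KO CM. It was 23 for CDDO-Me in media and 23 for the difference of its effects between WT CM and media. Under CDDO-Me with these weights it was 5 for NRF2 KO CM, 19 for KEAP1 KO CM and 21 for WT CM, each against media. With the compared groups alone it was 0 for WT CM against NRF2 KO CM, 2 for KEAP1 KO CM against NRF2 KO CM, 2 for CDDO-Me in NRF2 KO CM, and 8 for KEAP1 KO CM against media under CDDO-Me, with 5 higher and 3 lower in place of 3 higher and 7 lower. No called value changed sign there, while some members lost their call and others gained one. The cause was not tested. The count for KEAP1 KO CM against media under CDDO-Me was 17 without both NRF2 KO CM replicate 3 libraries.

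With a replicate block, which the main fit did not have, the count for WT CM against NRF2 KO CM was 14. In that pair of groups the numbers were not taken as a sign of pairing. The block moved no other count by over 1.5 times. Leaving out each library in turn gave 9 to 14 calls for WT CM against media, 5 to 13 for WT CM against NRF2 KO CM and 3 to 10 for KEAP1 KO CM against media under CDDO-Me. Without scaling, the share of higher genes among all called genes went from 61.5% to 44.2% for WT CM against NRF2 KO CM, from 51.1% to 33.6% for WT CM and from 54.5% to 37.4% for KEAP1 KO CM against media under CDDO-Me, and from 56.9% to 40.5% for the difference of effects between KEAP1 KO CM and media. Precision is limited by 3 libraries a group and by unknown depth.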

Other observations

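The genes whose level over the 24 libraries was most like the mean of the 28 members were, by Pearson r, Tcof1, a nucleolar protein (0.960), Slc25a1, the mitochondrial citrate carrier (0.954), Crabp2, a carrier of retinoic acid (0.953), Ptgs1, cyclooxygenase (0.949), Dut, which removes dUTP (0.947), B3gnt7 (0.946), Tmem97, a sterol-regulated protein of the endoplasmic reticulum (0.945), and Lpxn (0.942). The libraries share media and drug, so these values are descriptive, with no test.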
